A study of Mus musculus with 6 samples.

Results

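The genes described here encode 10 proteins of the neuronal cytoskeleton and neuronal RNA binding, namely Stmn2, Dcx, Tubb3, Nefl, Nefm, Nefh, Elavl2, Elavl3, Elavl4 and Trim9. They were taken from 19938 genes measured in mouse tumours, and were selected on these same values, that is, with their measured differences between relapsed and control tumours and their single outlying arrays already known. Each was read by the probe set that carries its symbol alone in the platform annotation. All 10 had 1 such probe set.

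Glioma cells whose growth depended on a mutant EGFR, a receptor tyrosine kinase for epidermal growth factor, were grafted subcutaneously in the flanks of Nu/Nu mice, an immunodeficient strain. The groups were 3 control gliomas, numbered 1, 2 and 4, and 3 relapsed gliomas, numbered 1, 2 and 3, collected after extinction of the mutant receptor. Some mice received doxycycline, an antibiotic used to switch engineered genes, in their water at 2 g/L, and tumours were taken at 2 cm3. The labels leave unstated which group was given it, which form of the receptor was used, or the age of the mice. All 6 samples share the kind of graft, mutant EGFR-driven glioma cells, the host strain and the flank site. A subcutaneous site lacks brain tissue, and the labels do not give the number of cell lines or clones behind the tumours.

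A growing axon is built on microtubules and neurofilaments. Stathmins and doublecortin set how microtubules assemble, neurofilament light, medium and heavy chains co-assemble into the filaments that set axon calibre, and the neuronal ELAV proteins bind AU-rich RNA to stabilise and splice the messages of differentiating neurons. Many of these genes are kept off outside the nervous system by the repressor REST. Gliomas of progenitor type commonly transcribe part of this programme.

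Values are log2 intensities, so that a difference of 1 is a 2-fold difference. Array medians lay between 6.58 and 6.68. Probe sets without a listed gene had a median of 5.66 over the 6 arrays, which serves below as a reference for dim signal and is not a limit of detection. Among markers of the labelled glioma, Sox2, a transcription factor of neural progenitors, stood at 11.31 to 11.42 in control and 9.47 to 10.74 in relapsed tumours, and Nes, which encodes the intermediate filament nestin, at 11.78 to 12.28 and 10.92 to 11.58. Olig2, the oligodendrocyte lineage factor, was 10.54 to 11.42 in control and 6.48 to 7.71 in relapsed tumours. These belong to a list of 13 oligodendrocyte progenitor and glioma markers, of which 9 were lower and 4 higher by mean in relapsed tumours. The higher were Pdgfra, Gfap, Gpr17 and Cspg4, by 0.64, 0.64, 0.10 and 0.09, none with a limma adjusted p under 0.05. For Sox2 and Nes the limma adjusted p was 0.079 and 0.12. Markers of muscle stood highest on control 2, of fat on relapsed 1 and of keratinocytes on relapsed 3, with scores of 1.85, 2.35 and 1.33 against at most 0.07, -0.24 and -0.17 on the other arrays. A score is the mean over a list of each gene's log2 value minus its mean over the 6 arrays.

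The 10 genes did not move as a block. Trim9 and Elavl4 were lower and Stmn2 was higher on all 3 relapsed arrays. Nefl and Nefm were high on relapsed 3 alone. Nefh, Tubb3 and Elavl3 differed little in mean between the groups, and Elavl2 and Dcx were slightly lower in relapsed tumours with groups that touched. By limma over all genes (adjusted p under 0.05), 3 of the 10 were called, 1 higher and 2 lower. Of all genes 9.16% were called, 3.69% higher and 5.47% lower. Groups did not overlap for the same 3 members, against 30.8% of all genes. These values chose the genes, so nothing is read from these shares. The median difference was -0.05 over the 10 genes and -0.02 over all genes. The labels do not say whether the tumours came from separate animals, so errors measure the spread between these samples.

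**Figure D1:**
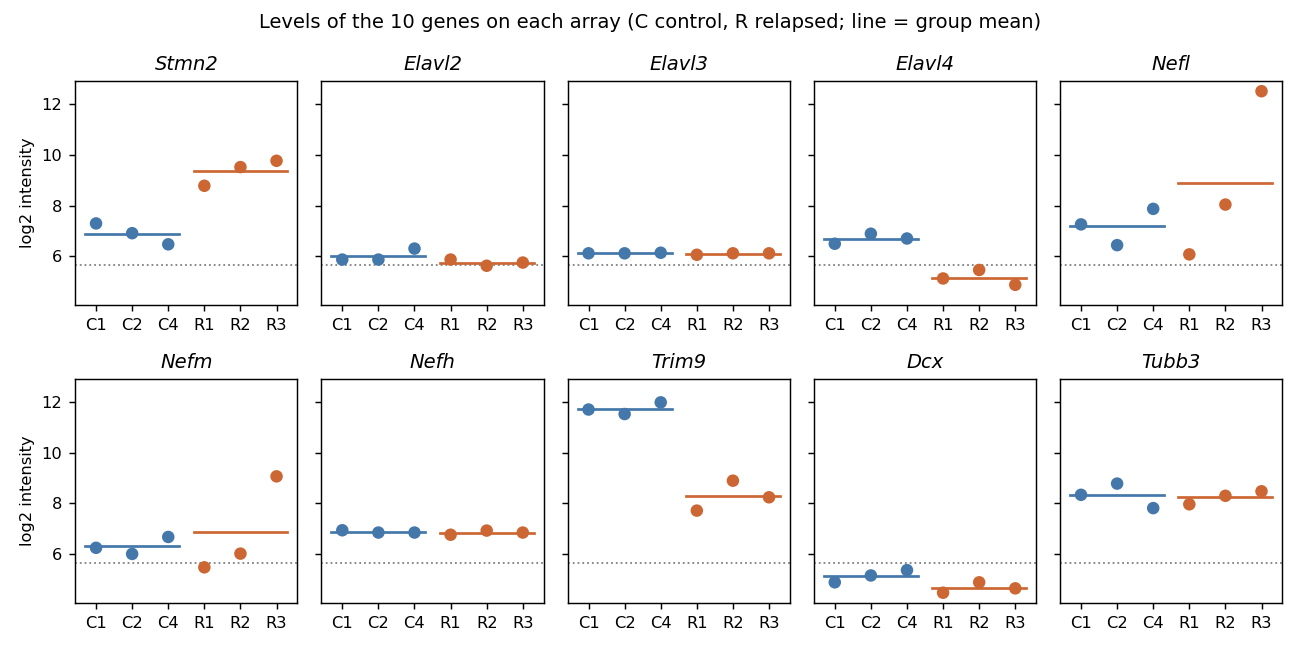
Log2 intensity of each of the 10 genes on the 6 arrays, with control tumours (C1, C2, C4) in blue, relapsed tumours (R1, R2, R3) in orange, group means as lines and the median of unlisted probe sets (5.66) dotted. Stmn2, Elavl4 and Trim9 separate the groups, while Nefl and Nefm stand high on R3 only, at 12.51 and 9.07.

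Promoter sequences from RefSeq (GRCm38.p6) were matched for 6 of the 10 genes, with 15 annotated starts. These were Trim9, Elavl2, Elavl3, Elavl4, Tubb3 and Dcx. None was matched for Stmn2, Nefl, Nefm or Nefh. Those of Trim9 and Elavl4 are shown because these were the members lower on every relapsed array. Each line gives the 250 bases before a start, 5′ to 3′ on the minus strand of the genome, with the E-box CAGCTG in capitals. This is a palindrome, the same on both strands, that basic helix-loop-helix factors such as the proneural and Olig proteins can bind. Trim9 has 1 listed start, and the first and second of 4 listed starts of Elavl4 are given.
Trim9, chr12:70347615-70347864: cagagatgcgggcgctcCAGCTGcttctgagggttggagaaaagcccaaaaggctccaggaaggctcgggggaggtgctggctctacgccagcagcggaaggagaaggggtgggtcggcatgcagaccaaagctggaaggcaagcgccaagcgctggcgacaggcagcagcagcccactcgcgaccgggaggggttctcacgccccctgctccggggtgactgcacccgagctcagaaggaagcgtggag
Elavl4, first start, chr4:110351912-110352161: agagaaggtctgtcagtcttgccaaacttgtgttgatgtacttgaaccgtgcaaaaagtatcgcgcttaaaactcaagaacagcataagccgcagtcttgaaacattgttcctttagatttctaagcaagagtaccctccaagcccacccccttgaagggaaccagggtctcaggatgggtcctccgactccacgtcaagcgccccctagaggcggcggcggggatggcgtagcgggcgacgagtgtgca
Elavl4, second start, chr4:110287528-110287777: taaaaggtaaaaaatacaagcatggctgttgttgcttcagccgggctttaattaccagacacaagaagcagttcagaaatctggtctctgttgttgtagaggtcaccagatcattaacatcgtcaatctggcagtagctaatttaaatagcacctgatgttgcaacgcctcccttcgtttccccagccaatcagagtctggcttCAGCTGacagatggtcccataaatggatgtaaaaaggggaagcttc
The E-box lay 233 bases before the Trim9 start, counted from its first base, and 46 bases before the second Elavl4 start. It was absent from the 250 bases of the first. Among all 32851 promoter windows of this length 13.0% held CAGCTG, and among the members it was also found in Elavl3, whose level barely differed. The letters TTCAGCACC and GGACAGCGC, parts of the element that REST binds, were searched on both strands and occur in none of the 15 member windows. They occur in 0.301% and 0.304% of all windows. Stmn2 and the neurofilament genes had no window here, so the element was not searched before them. The TATA box TATAAA, searched on both strands, was found before starts of Dcx and Elavl3 and in 12.4% of all windows. CAGCTG shares the stretch CAGC with both parts of the REST element, and no searched motif holds another whole. These matches describe the sequences only.

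Of the microtubule regulators, Stmn2 was the one that was higher. It encodes stathmin-2, also known as SCG10, a membrane-anchored protein of growth cones that binds tubulin and promotes microtubule turnover. Its levels were 7.30, 6.92 and 6.48 in control 1, 2 and 4 and 8.79, 9.52 and 9.77 in relapsed 1, 2 and 3. The lowest relapsed array lay 1.48 above the highest control array. The difference was 2.46 ± 0.33 (SE, 3 arrays per group), or 5.50-fold. It was 2.25 without control 4, 2.25 without relapsed 3 and 2.75 without relapsed 1, and of the 6 fits that leave out 1 array only the last called it. In bulk tumours such as these, more or fewer cells of a type and more or less RNA per cell cannot be told apart.

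Dcx encodes doublecortin, the microtubule-binding protein of migrating neuroblasts. It lay under the 5.66 reference on all 6 arrays, at 4.89, 5.16 and 5.37 in controls and 4.48, 4.89 and 4.65 in relapsed tumours. Control 1 and relapsed 2 held the identical deposited value, so the groups touched. The difference was -0.47 ± 0.16 at a level where signal and background are hard to separate. Tubb3, the class III beta-tubulin used as a neuron marker and also expressed in many gliomas, stood at 8.34, 8.78 and 7.81 in controls and 7.97, 8.30 and 8.48 in relapsed tumours. All relapsed values lay inside the control range, and the difference was -0.06 ± 0.27. Its sign depended on the arrays, from -0.31 without control 4 to 0.17 without control 2.

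Among the relatives of Stmn2 and Dcx, 1 of 9 measured genes fell and none rose, and 3 of 9 had an unadjusted p under 0.05 in limma. None of the other stathmins was called. Stmn1, the stathmin of dividing cells, differed by -0.07 ± 0.12, Stmn3 by -0.75 ± 0.28 and Stmn4 by -0.17 ± 0.16, with limma adjusted p of 0.75, 0.17 and 0.57. Dclk2, a doublecortin-like kinase, fell from 9.06, 9.51 and 9.37 to 7.46, 7.58 and 7.80. It fell by 1.70 ± 0.15 with a limma adjusted p of 0.0097 and was called in all 6 fits with 1 array left out. Over the list, 7 of 9 genes were lower by mean, with a median difference of -0.16.

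Neurofilament genes differed from each other and among the relapsed tumours. Nefl encodes the light chain, on which the filament is assembled. Its levels were 7.26, 6.45 and 7.88 in controls and 6.08, 8.05 and 12.51 in relapsed 1, 2 and 3. Relapsed 3 stood 4.47 above the next highest array, or 22.1-fold, and relapsed 1 lay below every control. No other gene of the 19938 had a larger standard deviation (SD) over the relapsed arrays than Nefl, at 3.29. The mean difference of 1.68 ± 1.66 rested on relapsed 3, without which it was -0.13. Without relapsed 1 it was 3.08.

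Nefm encodes the medium chain, whose tail projects from the filament, and followed the same array. It measured 6.25, 6.01 and 6.68 in controls and 5.48, 6.02 and 9.07 in relapsed tumours. Relapsed 3 stood 2.39 above the next highest array, or 5.23-fold, and only 17 genes had a larger SD over the relapsed arrays than its 1.93. Here too relapsed 1 was the lowest array. The difference was 0.54 ± 0.96, was -0.56 without relapsed 3 and was 1.23 without relapsed 1. Nefh, the heavy chain added as axons mature, did not follow. Its 6 values lay between 6.77 and 6.94, with the same deposited value of 6.85 on control 2, control 4 and relapsed 3, and the difference was -0.03 ± 0.07.

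Ranked by how far relapsed 3 exceeded the highest of the other 5 arrays, Nefl was at rank 2 and Nefm at rank 16 of 19938 genes. For 111 genes in all, relapsed 3 exceeded every other array by at least 2-fold. Rank 1 was Tmprss11b, a serine protease of squamous epithelium, at 9.23 against at most 3.93. Among the first 20 were 6 keratin or keratin-associated genes, including Krt25 and Krt71 of the hair follicle sheath, by 3.18 and 2.63, and Krt14 of basal keratinocytes, by 2.49. This ranking was made after the values were seen.

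The whole keratinocyte list moved on the same array. All 12 of 12 measured markers were highest on relapsed 3, where their mean level was 7.26, against 5.61 to 5.69 in controls and 5.55 for the lowest relapsed array. Krt10, a keratin of differentiating epidermis, and Dsc3, a desmosomal cadherin, stood at 7.65 and 6.83 there and at no more than 6.15 and 4.58 elsewhere. Not all were so distinct. Perp, with the smallest p of the list, was 10.06 on relapsed 3 and 8.49 on relapsed 1, against 6.63 to 7.62 in controls. Sbsn, with the next smallest p, and Krt15 were 6.82 and 5.67 on relapsed 3 and at most 6.46 and 5.50 elsewhere. None of the 12 was called between the groups in limma, and 0 of 12 had an unadjusted p under 0.05. The part of such cells in the Nefl and Nefm values was not tested.

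Markers of nerve did not stand apart on relapsed 3. The mean level of 15 peripheral sensory and autonomic neuron markers was 5.58 to 5.62 in controls and 5.55 to 5.67 in relapsed tumours, and 2 of the 15 were highest on relapsed 3. Isl1, a homeobox factor of these neurons, lay at 4.68 to 4.99 on every array, below the 5.66 reference. Prph, which encodes peripherin, the filament of peripheral neurons, measured 7.52 on relapsed 3 against 7.10 to 7.25 on the others. None of the 15 was called in limma and 1 had an unadjusted p under 0.05. The smallest p-values were those of P2rx3 and Avil, at -0.40 ± 0.09 and -0.19 ± 0.08, with limma adjusted p of 0.0531 and 0.193.

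Schwann cell markers had scores of -0.08 on relapsed 3 and -0.10 to 0.16 on the other arrays. Of 12 measured, 1 fell and none rose. That gene was Pllp, which encodes the myelin protein plasmolipin, at -2.27 ± 0.38 with a limma adjusted p of 0.0284. Of 6 markers of Merkel cells, the touch receptor cells of skin, 0 were highest on relapsed 3 and 0 were called in limma or had an unadjusted p under 0.05. Their smallest p-values belonged to Atoh1 at -0.08 ± 0.06 and Piezo2 at -0.55 ± 0.28, with limma adjusted p of 0.435 and 0.298.

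**Figure D2:**
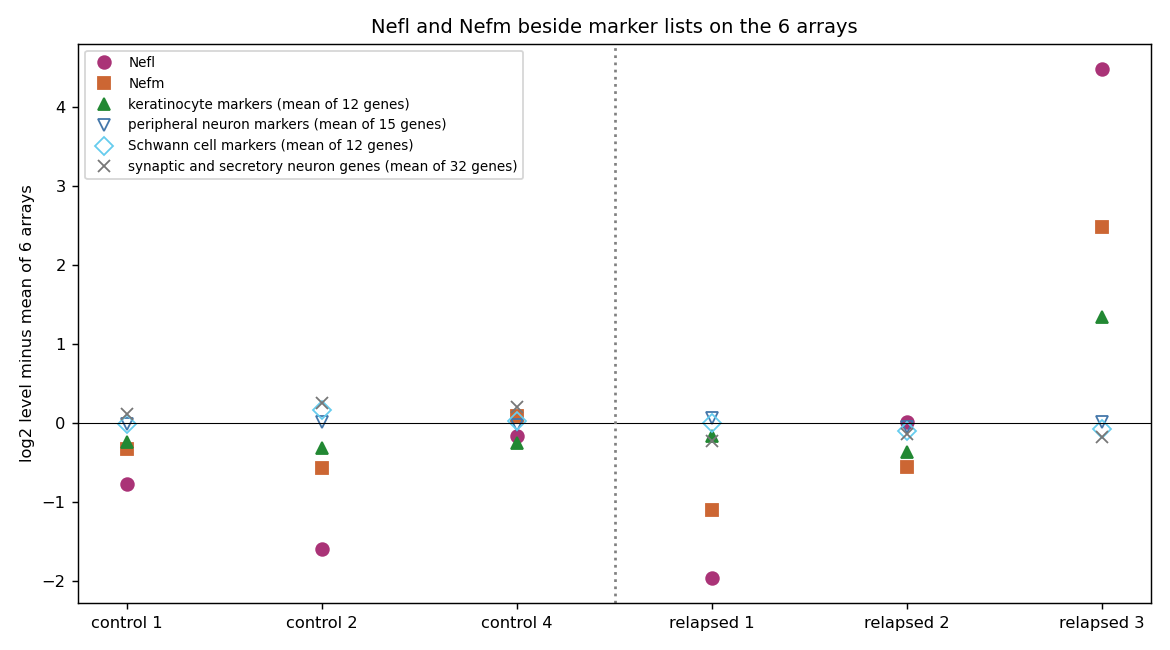
Log2 level minus the mean of the 6 arrays for Nefl and Nefm, and the same averaged over marker lists, for each array. Nefl, Nefm and the keratinocyte list are high on relapsed 3, while peripheral neuron, Schwann and synaptic genes stay between -0.23 and 0.25 on all arrays.

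The genes next to this pair did not share the pattern. Nefl and Nefm are neighbours with no other protein-coding gene between them in RefSeq. On the Nefl side, Dock5 was 7.20 to 7.72 in controls and 8.67, 8.75 and 8.67 in relapsed tumours, a rise of 1.18 ± 0.15 with a limma adjusted p of 0.0169, and relapsed 3 was level with relapsed 1. Gnrh1 and Kctd9 on that side reached 6.75 and 9.64 on relapsed 3 and 6.64 and 9.51 on relapsed 2. On the Nefm side Adam7, Adamdec1 and Adam28 measured 3.93, 4.78 and 4.48 on relapsed 3, within 0.1 of at least 1 control array each.

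Of the other intermediate filaments and their linkers, 1 of 12 rose and 1 fell, with a median difference of -0.06. Ina, which encodes alpha-internexin, the filament partner of neurofilaments in central neurons, fell from 7.84, 8.40 and 9.01 to 6.75, 6.51 and 6.49. It fell by 1.84 ± 0.30 with a limma adjusted p of 0.0267 and was called in 1 of the 6 fits with 1 array left out. Macf1, a linker of actin and microtubules, rose by 0.34 ± 0.06 with a limma adjusted p of 0.0374 and was called in 0 of those 6 fits. Vim, the vimentin gene, differed by -0.07 ± 0.05 and was not called.

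The ELAV genes split in a different way. Elavl4, also called HuD, is the member best known from differentiating neurons. It measured 6.50, 6.90 and 6.71 in controls and 5.13, 5.47 and 4.88 in relapsed tumours. All 3 relapsed values were under the 5.66 reference, and the groups were 1.03 apart at their nearest. The difference was -1.54 ± 0.18, for which no fold is given because the relapsed level is hard to separate from background. Elavl4 is among the dimmer 50% of genes, so a filter that leaves these out removes its call. It was called in 4 of the 6 fits with 1 array left out, and not without control 4 (-1.54) or without relapsed 3 (-1.40).

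Elavl2, or HuB, was 5.88 on control 1, control 2 and relapsed 1, identical to the last deposited digit, 6.31 on control 4, and 5.63 and 5.76 on relapsed 2 and 3. Control 4 was thus the single high array, and the difference was -0.26 ± 0.14. Elavl3, or HuC, had the identical value of 6.12 on 4 arrays, and its whole range was 0.08. Both genes lay within 0.7 of the 5.66 reference on every array, where a small difference is hard to see. Elavl1, the ubiquitous relative HuR, was 11.08, 11.15 and 11.09 in controls and 10.84, 10.94 and 10.91 in relapsed tumours, a difference of -0.21 ± 0.06 that was not called.

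Among 31 other neuronal RNA-binding proteins, 1 rose and 2 fell, with a median difference of -0.05. Msi1, the Musashi protein of neural progenitors, fell by 1.60 ± 0.27 with a limma adjusted p of 0.0298. Fxr2, a relative of the fragile X protein, fell by 0.60 ± 0.11 with a limma adjusted p of 0.0328, and Ptbp3, a polypyrimidine tract-binding protein, rose by 0.50 ± 0.08 with a limma adjusted p of 0.0250. Msi1 and Fxr2 were each called in 1 of the 6 fits with 1 array left out and Ptbp3 in 0. Rbfox3, which encodes the neuron marker NeuN, stayed at 5.64 to 5.97.

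Trim9 had the largest difference of the group. It encodes a brain-enriched ubiquitin ligase that binds the netrin receptor DCC and restrains axon branching. Its levels were 11.70, 11.52 and 11.98 in controls and 7.72, 8.90 and 8.24 in relapsed tumours. The groups were 2.63 apart at their nearest, and the relapsed tumours spread more widely, with an SD of 0.59 against 0.23. The difference was -3.45 ± 0.32, or 10.9-fold. It was called in all 6 fits with 1 array left out, at -3.76 to -3.17.

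Of 20 relatives of Trim9 and genes of the netrin pathway, 3 fell and none rose, with a median difference of -0.24. Ntn1, which encodes the guidance cue netrin-1, fell from 10.19, 10.50 and 10.64 to 9.45, 9.21 and 9.35, by 1.10 ± 0.14 with a limma adjusted p of 0.0168. Ntn3 fell by 0.58 ± 0.12 with a limma adjusted p of 0.0442, and Trim32, a ligase that restrains progenitor growth, fell by 0.39 ± 0.06 with a limma adjusted p of 0.0252. These 3 were called in 2, 1 and 1 of the 6 fits with 1 array left out. Trim67, the closest relative of Trim9, differed by -0.38 ± 0.13 and the receptor gene Dcc by -0.35 ± 0.14, with limma adjusted p of 0.14 and 0.19.

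**Figure D3:**
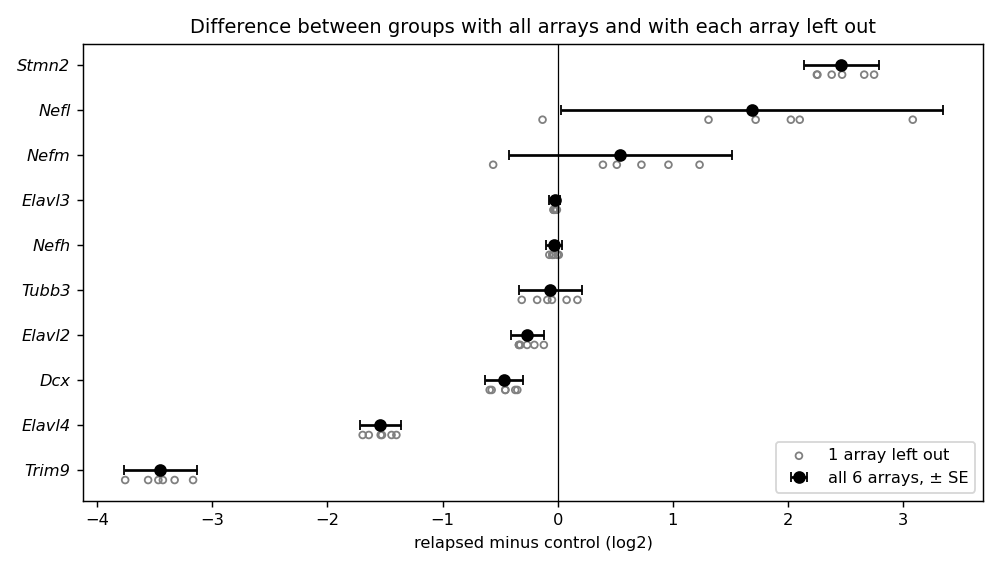
Relapsed minus control difference of the 10 genes on the log2 scale, as filled points with SE bars from limma for all 6 arrays and open points for each fit with 1 array left out. Trim9, Elavl4 and Stmn2 keep their side, and the points of Nefl and Nefm spread from -0.13 to 3.08 and from -0.56 to 1.23.

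The count of 3 called members changed with 1 array left out. So did the calls over all genes, which were 1826 of 19938 with all 6 arrays. Without control 4 or without relapsed 3 only Trim9 was called, with 264 and 297 genes called in all. Without control 1, control 2 or relapsed 2 the called members were Trim9 and Elavl4, with 415, 696 and 424 genes. Without relapsed 1 they were all 3, with 975 genes. Over these fits the difference ranged from 2.25 to 2.75 for Stmn2 and from -1.69 to -1.40 for Elavl4.

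Markers of other cell types differed between the same groups. Fibroblast markers had mean levels of 8.94 to 9.46 in controls and 10.48 to 11.26 in relapsed tumours, with 8 of 10 risen and none fallen. Macrophage markers had 8.56 to 8.75 and 10.08 to 10.55, with 9 of 10 risen and none fallen. Oligodendrocyte progenitor and glioma markers had 9.59 to 10.15 and 8.59 to 8.71, with 6 of 13 fallen and none risen. Their part in the values of Trim9, Elavl4 and Stmn2 was not tested. The fibroblast, macrophage and progenitor genes with the largest called differences were Lum, Mrc1 and Olig2, at 2.76 ± 0.49, 2.17 ± 0.13 and -3.54 ± 0.43. None of 12 muscle or 9 adipocyte markers was called in limma, and 2 and 0 of them had an unadjusted p under 0.05.

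Genes around the 10 were more often lower than higher in relapsed tumours. Of 199 measured genes in 10 lists of related function, 27 fell and 2 rose in limma, or 13.6% and 1.01%, against 5.47% and 3.69% of all genes. Their median difference was -0.14, and that of all genes -0.02. The lists were described by these counts and not tested as sets. With each array centred on its median, 37 fell and 1 rose, and of all genes 1687 fell and 696 rose in place of 1091 and 735. With 1 array left out, 10, 9 and 5 fell without control 1, 2 and 4, and 13, 5 and 8 without relapsed 1, 2 and 3, with at most 1 risen. Of all 19938 genes, in the same order, 275, 395, 144, 595, 247 and 171 fell and 140, 301, 120, 380, 177 and 126 rose.

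Of 15 measured tubulins 2 fell and none rose, with a median difference of -0.20. Tubb4a, a brain beta-tubulin abundant in oligodendrocytes, fell by 2.25 ± 0.27, and Tubg1, the gamma-tubulin that nucleates microtubules, fell by 1.02 ± 0.07, with limma adjusted p of 0.0156 and 0.0064. Tubb4a was called in 1 of the 6 fits with 1 array left out. The alpha-tubulin gene Tuba4a was 1.01 ± 0.27 higher and was not called. Of 20 microtubule-associated proteins and collapsin response mediators, 4 fell and none rose. These were Dpysl4 at -0.95 ± 0.20, Map6 at -0.62 ± 0.09, Map1s at -0.62 ± 0.13 and Dpysl2 at -0.56 ± 0.08, with limma adjusted p of 0.0449, 0.0214, 0.0433 and 0.0203. These were called in 0, 1, 0 and 2 of the 6 fits with 1 array left out. Of that list, 0, 0 and 1 genes were called without control 1, 2 and 4, and 1, 0 and 1 without relapsed 1, 2 and 3. Map2, the dendritic protein, differed by -0.64 ± 0.19 and Mapt, the tau gene, by -0.10 ± 0.16, and neither was called.

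Axonal transport motors gave 2 falls and no rise among 14 genes. Kif1a, the kinesin that carries synaptic vesicle precursors, fell from 9.41, 9.57 and 9.21 to 7.41, 7.73 and 7.15. It fell by 1.97 ± 0.18 with a limma adjusted p of 0.0100. Kif3c, a neuronal kinesin-2 subunit, fell by 1.32 ± 0.12 with a limma adjusted p of 0.0105. Kif1a, Kif3c, Tubg1 and Dclk2 were the 4 of 26 named called genes of these lists that were called in all 6 fits with 1 array left out.

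Synaptic and secretory genes fell in 7 of 32 cases and rose in none, with a median difference of -0.19. Camk2b, a calcium-dependent kinase subunit of synapses, fell by 2.03 ± 0.28, Syt11, a synaptotagmin, by 1.24 ± 0.19, Chl1, a cell adhesion molecule of axons, by 1.18 ± 0.22 and Dlg4, the scaffold PSD-95, by 0.95 ± 0.13. Their limma adjusted p were 0.0195, 0.0231, 0.0345 and 0.0190, and they were called in 1, 1, 1 and 2 of the 6 fits with 1 array left out. Of the list, 3, 2 and 0 genes were called without control 1, 2 and 4, and 1, 0 and 2 without relapsed 1, 2 and 3. Snap25, a synaptic vesicle fusion gene, stayed at 5.32 to 5.54, below the 5.66 reference.

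Of 31 neuronal specification factors, 2 fell and none rose. Prox1 fell by 1.55 ± 0.25 and Pou3f3 by 1.45 ± 0.29, with limma adjusted p of 0.0270 and 0.0424. Both are transcription factors of neural progenitors. Pou3f4 and Sox11 of the same list differed by -1.92 ± 0.45 and -1.32 ± 0.32 and were not called. With median centring 7 of the 31 genes were called in place of 2, with quantile normalization 4 and with the dimmer genes left out 5. The number was 1, 2 and 0 without control 1, 2 and 4, and 0, 1 and 0 without relapsed 1, 2 and 3, with Prox1 called in 2 of these 6 fits and Pou3f3 in 0.

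Among 15 genes of the REST repressor complex, 3 fell and none rose. Hdac1 and Sin3b, corepressor components, fell by 0.53 ± 0.11 and 0.42 ± 0.08, and Ehmt1, a histone methyltransferase, by 0.31 ± 0.06, with limma adjusted p of 0.0423, 0.0344 and 0.0426. They were called in 1, 0 and 1 of the 6 fits with 1 array left out, in which 1 gene of the list was called without control 2, 1 without relapsed 3 and 0 in the others. Rest itself was 9.55, 9.33 and 9.37 in controls and 9.35, 9.70 and 9.57 in relapsed tumours, a difference of 0.12 ± 0.11 that was not called.

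**Figure D4:**
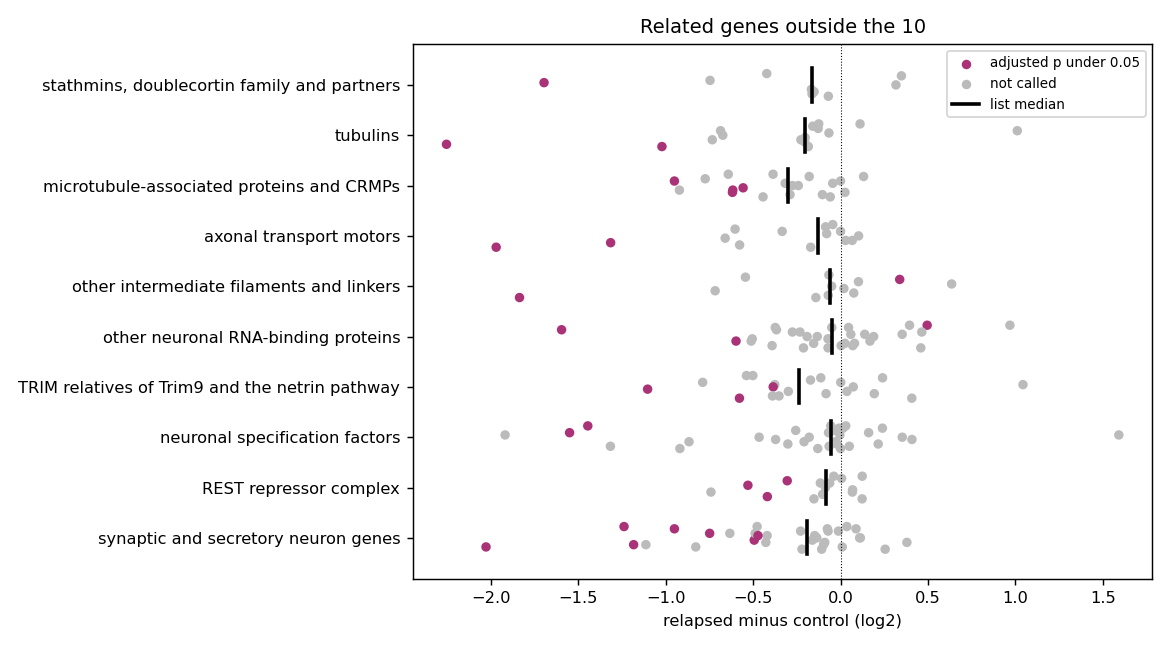
Relapsed minus control difference on the log2 scale of each measured gene in the 10 lists of related genes, with genes called at an adjusted p under 0.05 in purple, others in grey and the list median as a black bar. All 10 medians lie below 0, from -0.30 to -0.05, and 27 called genes are lower against 2 higher.

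For the 5 members whose range over the 6 arrays was at least 1, the genes with the most similar profile were sought among 3885 others with such a range, by Pearson r over the 6 arrays, which also shared the split into groups. The best of so many genes over 6 arrays can reach a high r, and none of these values was tested. The closest to Stmn2 were Fam78b (0.995), Pilrb1 (0.988) and Gas5 (0.988). Elavl4 was followed by Mark1 (0.998), a microtubule affinity-regulating kinase, Wscd1 (0.996) and Ckb (0.996), the brain creatine kinase. Trim9 was followed by Dpf3 (0.997), Agrn (0.996), which encodes agrin, and Etv5 (0.995), an ETS transcription factor.

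For the neurofilament pair the likeness rested on relapsed 3. The closest to Nefl were Sos2 (0.987), Asprv1 (0.982), a protease of the epidermis, and Krt73 (0.976), a keratin of the hair follicle. Those to Nefm were Spink5 (0.992), a protease inhibitor of skin, Krt75 (0.992), another hair follicle keratin, and again Asprv1 (0.990). Sos2 was 10.03 and Asprv1 7.69 on relapsed 3, and at most 9.28 and 6.33 on the other arrays.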

How the data were processed

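Biotin-labelled cRNA from 5 ug of total RNA of each of 6 tumours was read on an Affymetrix array, per the labels' protocols. The deposited values are log2 intensities that the authors had normalized. The log2 scale was read from the values, 1.93 to 14.2. The submitters' processing notes name affy, with no version, and how background was corrected, arrays normalized or probes summarized is not given in the sources used here. A normalization that sets arrays alike could hide a shift shared by most genes.

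Of 35556 probe sets, 21789 carried 1 symbol, which gave 19938 genes, with the highest-mean probe set for each. Relapsed was fitted against control with limma 3.58.1 (R 4.3.3; lmFit, eBayes; 4 residual degrees of freedom), with Benjamini-Hochberg adjustment over all genes. A run on simulated normal values with planted changes checked only the size of the estimates, not the rate of true or false calls. The number of arrays limits the precision. Of each list up to 4 called genes with the largest differences were named, or the 2 with the smallest p; any other gene was picked with its values in view. The members and lists were chosen with earlier results of these data known. Of 211 genes in the 10 lists, 199 were measured and the others were not analysed here. Promoters came from RefSeq. Alternatives were a filter on dim genes, other scalings, other handling of probe sets, a replicate block and leaving out each array.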

Additional observations from a re-analysis of the deposited data

How the results depend on the processing

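Over 12 alternatives, 111 of 114 recomputed member differences moved by less than the gene's own spread between arrays and none of a called member changed sign. The other 3 were Elavl3 with quantile normalization and Elavl3 and Nefh with median centring, all by under 0.1. That spread was wide for Nefl and Nefm, which stayed within it although they changed sign without relapsed 3, at -0.13 and -0.56. Each member had 1 probe set, so other handling of probe sets could not change its difference. Nor could the filter on dim genes. All genes called ranged from 264 to 975 of 19938 with 1 array left out, and members called from 1 to 3. With the dimmer 50% of genes left out, 6 of the 10 members dropped out, among them Elavl4, so that Stmn2 and Trim9 were the 2 called of the remaining 4. The tumour numbers 1 and 2 occur in both groups. Deviations of same-numbered arrays from their group means correlated at -0.34 and -0.25 over genes, and those of differently numbered arrays at -0.19 to 0.35. So few pairs cannot decide whether the numbers pair the samples, and the main fit takes no pairing. With the replicate number as a block, limma had 1 residual degree of freedom and called 0 genes and 0 members, with 2199 genes and 4 members at an unadjusted p under 0.05. Control 4 and relapsed 3 had no same-numbered partner, so the differences in that fit rested on tumours 1 and 2 of each group. They were 2.04 for Stmn2, 0.21 for Nefl and -0.38 for Nefm. Nefm thus changed sign from the 0.54 of the main fit. The dim signal of Elavl2, Elavl3 and Dcx, and of Elavl4 in relapsed tumours, limits what their values can show.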

Other observations

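Some deposited values recur exactly on different arrays. This was so for 4 of the 10 genes, Elavl2, Elavl3, Nefh and Dcx, whose most frequent value stood on 3, 4, 3 and 2 arrays. Over all genes 38.9% had a value repeated on at least 2 arrays, with 62.5% in the dimmer 50% of genes and 15.2% in the brighter. Elavl3, with 4 identical values, had SDs of 0.01 in controls and 0.03 in relapsed tumours, while Elavl2, with 3, had SDs of 0.25 and 0.12.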
